A study of Mus musculus with 2 samples.

Results

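The 10 genes described here make and load major histocompatibility complex (MHC) class I molecules: the heavy chains H2-K1, H2-D1 and H2-M3, the light chain B2m, the peptide transporter subunits Tap1 and Tap2, the loading factor Tapbp, the immunoproteasome subunits Psmb8 and Psmb9 and the trimming enzyme Erap1. They were found on the arrays by the gene name of each probe or by the current symbol of its RefSeq transcript, which gave 11 probes. All 10 were among the 15690 genes measured of 27238 named on the array. Measured means that the scanner software flagged at least 1 of the pools as well above background, and the same pool each time.

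Total RNA of sorted mouse cells was compared on 2 dye-swapped Agilent arrays of 60-base probes. The colon pool held CX3CR1high CD11b+ CD11c+ cells of the large-intestinal lamina propria, the connective tissue under the gut epithelium, from CX3CR1gfp/+ mice, in which a green fluorescent protein gene replaces 1 Cx3cr1 allele. The blood pool held Ly6c+ CD11b+ monocytes, circulating precursors of tissue macrophages, from C57BL/6J mice. Array 1 carried the colon pool in Cy5 (red) and the blood pool in Cy3 (green), and array 2 carried them the other way round. What the stated n = 10 (colon) and n = 6 (blood) count is not said. Age, sex and treatment are not given in the labels. Both arrays hold the same pools and count as 1 replicate, so the SD over the 2 arrays is technical and no p-value can be given. Strain, tissue and isolation differ together with the cell type and cannot be told apart. In such bulk pools fewer cells of a type and less RNA per cell cannot be told apart either.

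Class I molecules stand on nearly every nucleated cell and show short peptides to CD8+ T cells and natural killer cells. Proteasomes cut cytosolic proteins, and interferon exchanges their standard catalytic subunits for immunoproteasome subunits. The TAP transporter, a dimer of Tap1 and Tap2, carries the peptides into the endoplasmic reticulum (ER), where Erap1 trims them and tapasin (Tapbp) helps to fit them into a heavy chain bound to beta-2-microglobulin (B2m). Class II molecules take their peptides from endosomes instead and are made mainly by professional antigen-presenting cells.

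The genes of the heavy and light chains are known to be driven by short promoter elements that follow each other in a set order, which interferon, NF-kappa B and the NLRC5 and RFX factors act on. The stretches of H2-K1, H2-D1, H2-M3 and B2m below come from RefSeq's GRCm38.p6 promoter windows (250 bases before to 50 after a gene start). They are shown because the 4 genes hold an interferon regulatory factor element, a TGACG and an ATTGG in the same order. Their log2 ratios, given below, spread from 0.78 to -0.06. Of the 4, only H2-K1 and H2-D1 also hold the kappa B core. Capitals mark the motifs searched on both strands: GGATTCC (core of the class I kappa B site), AANNGAAA (interferon regulatory factor element, which reads TTTCNNTT on the other strand), TGACG (core of the cyclic AMP response element) and CCAAT (read as ATTGG on the other strand).
H2-K1, chr17:34000351-34000464, minus strand: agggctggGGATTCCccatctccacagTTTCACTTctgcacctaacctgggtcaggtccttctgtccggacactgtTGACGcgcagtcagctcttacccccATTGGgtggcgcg
H2-D1, chr17:35262917-35263053, plus strand: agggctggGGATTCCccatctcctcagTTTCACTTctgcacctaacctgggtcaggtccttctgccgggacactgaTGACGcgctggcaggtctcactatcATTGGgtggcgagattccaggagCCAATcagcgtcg
H2-M3, chr17:37270097-37270225, plus strand: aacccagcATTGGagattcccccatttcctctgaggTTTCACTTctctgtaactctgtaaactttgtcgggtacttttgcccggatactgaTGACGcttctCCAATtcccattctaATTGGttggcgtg
B2m, chr2:122147542-122147646, plus strand: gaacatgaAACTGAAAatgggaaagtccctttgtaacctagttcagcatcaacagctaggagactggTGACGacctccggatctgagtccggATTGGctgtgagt

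Each stretch runs from an interferon regulatory factor element through a TGACG to an ATTGG, and H2-M3 has a further ATTGG before them. The kappa B letters were found in the windows of H2-K1 and H2-D1 among the 9 genes with an entry, and in 1245 of all 32851 windows (3.79%). The windows of H2-K1 and H2-D1 were identical at 73.3% of 240 aligned bases. The other motifs are common: the interferon regulatory factor element stood in 23.9% of all windows and in 5 of the 9, TGACG in 20.8% and in 6 of the 9, and CCAAT in 37.4% and in 7 of the 9. A match of letters is a description and not a binding site. Tap1 and Psmb9 are transcribed away from each other from starts 225 bases apart. The stretch between these starts is shown on the Tap1 strand because both genes were lower in the colon pool.
Tap1 and Psmb9, chr17:34187331-34187555: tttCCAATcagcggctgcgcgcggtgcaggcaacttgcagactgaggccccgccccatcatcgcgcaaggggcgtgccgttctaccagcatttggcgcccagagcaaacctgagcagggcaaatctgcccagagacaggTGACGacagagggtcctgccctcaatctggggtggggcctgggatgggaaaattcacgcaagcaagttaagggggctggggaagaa

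This shared stretch holds 1 CCAAT and 1 TGACG but neither the kappa B nor the interferon regulatory factor letters, and the letters' absence says nothing of other sites. The probes that measured the genes are copies of the transcript. The Tap1 probe is shown because Tap1 alone among the 10 passed the size rule given below, and the Psmb8 and Psmb9 probes because they followed it in rank. All 3 have no stop codon in 2 of their 3 reading frames and share at most 13 bases in a row with a probe of any other gene. They were not compared with whole transcripts.
Tap1, chr17:34330854-34330913 (mm9): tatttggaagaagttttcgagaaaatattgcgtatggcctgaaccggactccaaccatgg
Psmb8, chr17:34337771-34337830 (mm9): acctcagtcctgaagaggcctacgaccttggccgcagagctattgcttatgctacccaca
Psmb9, chr17:34319174-34319233 (mm9, minus strand): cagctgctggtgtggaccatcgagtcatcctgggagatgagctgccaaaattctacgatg

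The class I genes were detected in both pools, and 9 of the 10 differed by less than the 2-fold rule. None of the 10 was called higher in the colon pool and 1, Tap1, was called lower. A gene was called when its log2 ratio of colon over blood, after loess normalization, was at least 1 or at most -1 (2-fold) on each array and the brighter pool was well above background on both. Of all 15690 measured genes, 14.2% were called higher and 4.46% lower, 18.6% in all. The 10 genes had a median log2 ratio of -0.04, against 0.06 for all measured genes. On both arrays, 4 were above 0 (H2-K1, B2m, H2-M3 and Tap2) and 4 below 0 (Tapbp, Psmb8, Psmb9 and Tap1), while H2-D1 and Erap1 changed sign between arrays. Of all genes, 47.7% were above 0 and 39.5% below 0 on both arrays.

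Every one of the 10 was well above background in both pools on both arrays, and none was saturated. Raw intensities ran from 94.8 for Erap1 to 130008 for H2-D1, over a local background of 40.5 to 43.0. The SD over arrays ran from 0.004 for Tap2 to 0.27 for H2-D1, against a median of 0.10 over all genes. By its ratio each gene stood apart from its neighbour in rank, without overlap of the 2 arrays, at 5 of 9 steps: between H2-K1 and B2m, Tap2 and Erap1, Tapbp and Psmb8, Psmb8 and Psmb9, and Psmb9 and Tap1. The remaining neighbours (B2m, H2-M3 and Tap2, then Erap1, H2-D1 and Tapbp) overlapped.

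**Figure D1:**
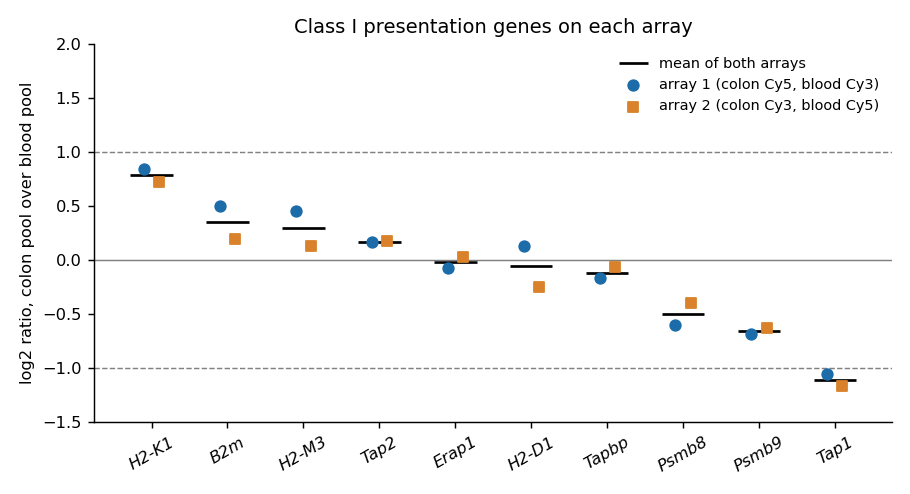
Log2 ratio of colon over blood (vertical axis) of the 10 genes, ordered by mean: circles are array 1, squares array 2, bars their mean, and dashed lines the 2-fold limits. Both Tap1 points, -1.06 and -1.16, lie under the lower limit and no other gene passes either limit; with median centring in place of loess the whole set shifts down and H2-K1, B2m, H2-M3 and Tap2 fall below 0.

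H2-K1 encodes the heavy chain of H-2K, a classical class I molecule that presents peptides to CD8+ T cells. Its brightest probe (chr17:34133055-34133114, mm9, minus strand) read 33250 for blood and 95508 for colon on array 1, and 103998 for blood and 30947 for colon on array 2. The red channel was the brighter for whichever pool it carried, so these raw values do not compare the pools before the dyes are balanced. After loess the log2 ratios were 0.84 and 0.73, mean 0.78 ± 0.08 (SD over 2 arrays), 1.72-fold higher in the colon pool. That placed H2-K1 at the 80.2th percentile of all genes by ratio. It stayed short of the 2-fold rule. Loess assumes that most genes at each intensity do not differ between the pools, which these 2 arrays cannot settle. Median centring of each array in its place gave 1.26 on array 1 and -1.40 on array 2, opposite signs that follow the dye, with a mean of -0.07. No normalization gave 1.52 and -1.74, with a mean of -0.11. The median of all genes moved to -0.28 and -0.32, and against that median H2-K1 was 0.72 higher after loess and 0.21 higher in each of the others. The same holds for the other genes below: with median centring the arrays differed in sign for H2-D1 (0.56 and -2.36), H2-M3 (0.72 and -1.49), B2m (0.92 and -1.90), Tap2 (0.49 and -1.69), Tapbp (0.14 and -1.90) and Erap1 (0.18 and -0.66). Whether H2-K1, B2m, H2-M3 and Tap2 were higher or lower in the colon pool thus depended on the choice of scaling.

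The H2-K1 probe is repeated at 10 spots on each array. Their ratios ran from 0.72 to 0.93 on array 1 and from 0.69 to 0.76 on array 2. No spot reached the 2-fold limit. A second probe 5' of the first on the transcript (chr17:34133984-34134043) gave a smaller ratio, 0.30 and 0.19, mean 0.24 ± 0.07. The spread between the probes exceeded that between arrays. The second probe shares 29 bases in a row with the probe of H2-T23, the gene of the non-classical heavy chain Qa-1, whose ratio was 0.04 ± 0.09. The first H2-K1 probe shares at most 14 with a probe of any other gene. Probes were compared with probes only, so which other transcripts either probe takes up was not tested. The 2 sequences are set side by side to show the shared run, in capitals. Whether the second probe takes up transcripts of both genes was not tested.
H2-K1, second probe: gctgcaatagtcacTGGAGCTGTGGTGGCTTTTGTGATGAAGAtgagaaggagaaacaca
H2-T23: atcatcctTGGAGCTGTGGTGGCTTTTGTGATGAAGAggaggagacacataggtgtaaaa

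H2-D1 encodes the second classical heavy chain, H-2D. Its probe (chr17:35403886-35403945, mm9) read 46973 for blood and 82519 for colon on array 1, and 130008 for blood and 19957 for colon on array 2. The log2 ratios of 0.13 and -0.25 differed in sign, with a mean of -0.06 ± 0.27, so the 2 pools did not differ beyond the spread between arrays. The H2-K1 ratio exceeded the H2-D1 ratio by 0.84 ± 0.19 on the log2 scale, 1.79-fold. That difference was 0.83 to 0.85 under 4 other scalings (median centring, no background correction, the scanner software's ratios and an offset of 16). Both genes were at the 99.0th percentile of all genes by signal. A shift shared by both cancels in a difference, so this narrow range is a weak check. The difference used the first H2-K1 probe (0.78). It was smaller with the second probe (0.24) or with the mean of both (0.51). With median centring H2-D1 itself was at -0.90.

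H2-M3 encodes a non-classical heavy chain that presents peptides starting with formyl-methionine, such as those of bacteria and mitochondria. Its probe (chr17:37411350-37411409, mm9) read 1107 for blood and 2191 for colon on array 1, and 2933 for blood and 816 for colon on array 2. The log2 ratios were 0.46 and 0.13, mean 0.29 ± 0.23. With median centring the mean was -0.39, which is -0.10 relative to that setting's median of all genes.

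B2m encodes the light chain shared by all class I molecules, and its absence keeps most of them from the cell surface. The probe (chr2:121978401-121978460, mm9) read 35466 for blood and 79918 for colon on array 1, and 96135 for blood and 20362 for colon on array 2. The log2 ratios were 0.50 and 0.20, mean 0.35 ± 0.22, 1.27-fold higher in the colon pool and not called. Under median centring the mean was -0.49. The ratio of the first H2-K1 probe lay 0.44 ± 0.13 above that of B2m. The gap was 0.17 with the mean of both H2-K1 probes and -0.10 with the second probe, so the order of H2-K1 and B2m depended on the probe.

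Tap1 was the gene of the set called lower in the colon pool. It encodes an ATP-binding subunit of the peptide transporter, with Tap2 as its partner. Its probe read 866 for blood and 582 for colon on array 1, and 2114 for blood and 258 for colon on array 2, so the blood value was the higher in either dye. The log2 ratios were -1.06 and -1.16, mean -1.11 ± 0.07, which is 2.16-fold lower in the colon pool and at the 4.28th percentile of all genes. Of its 10 spots, array 1 gave -1.13 to -0.95 with a median of -1.08, and array 2 gave -1.22 to -1.06 with a median of -1.17. Every spot on both arrays was below 0, and the ranges of the Tap1 spots and those of the first H2-K1 probe did not overlap. The spots of an array are copies of 1 probe that met the same labelled pools. Their spread is technical and they are not replicates.

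**Figure D2:**
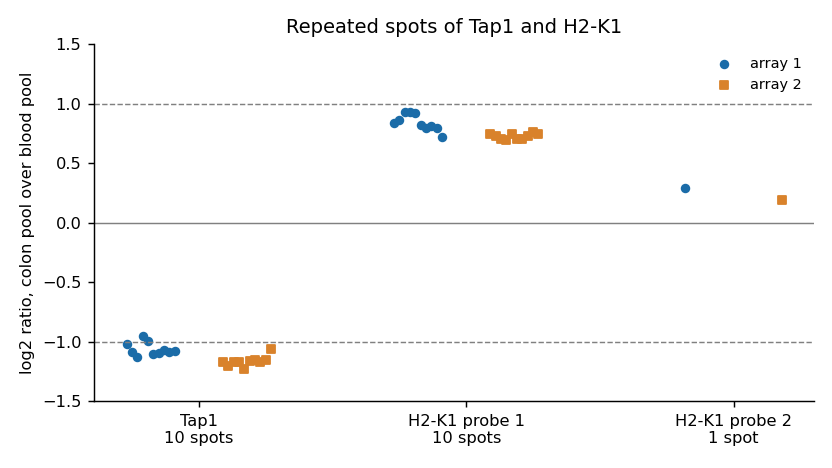
Log2 ratio of colon over blood (vertical axis) at each spot of the Tap1 probe, the first H2-K1 probe and the second H2-K1 probe, with array 1 as circles and array 2 as squares. Spots are copies of a probe on the same array and not replicates. The 10 Tap1 spots lie between -1.13 and -0.95 on array 1 and between -1.22 and -1.06 on array 2, and the first H2-K1 probe between 0.72 and 0.93 and between 0.69 and 0.76; H2-K1 falls to a mean of -0.07 with median centring, while Tap1 stays below 0.

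The Tap1 call rested on a ratio close to the limit. It held without background correction, with a smaller offset and with the scanner software's own ratios (-1.41 and -1.51). A gene called on both arrays is also called on each array alone, so the single arrays add no check. With median centring the arrays gave -0.80 and -2.63, and with no normalization -0.55 and -2.97, so that array 1 missed the limit while the means fell further, to -1.72 and -1.76.

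Tap2, the transporter's other subunit, was near equal between the pools. The probe (chr17:34353116-34353175, mm9) read 6750 for blood and 11280 for colon on array 1, and 18446 for blood and 4504 for colon on array 2. Both arrays gave a log2 ratio of 0.17, with an SD of 0.004. The 2 subunits of 1 transporter thus had ratios 1.28 ± 0.08 apart on the log2 scale, 2.43-fold, and 1.11 to 1.56 apart under the 4 other scalings. Each subunit was read by 1 probe, and the SD covers the 2 arrays but not a spread between probes. That spread can be the larger, as for the H2-K1 probes at 0.78 and 0.24. Tap2 itself was -0.60 with median centring.

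Tapbp encodes tapasin, which bridges the transporter and the empty class I molecule. Its probe (chr17:34065963-34066022, mm9) read 6871 for blood and 9033 for colon on array 1, and 15429 for blood and 3267 for colon on array 2. The log2 ratios were -0.17 and -0.07, mean -0.12 ± 0.07. That is a difference too small to be called. With median centring the mean was -0.88. The Tapbp ratio lay 0.99 ± 0.14 above that of Tap1.

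Psmb8 and Psmb9 encode catalytic subunits of the immunoproteasome (LMP7 and LMP2), which replace Psmb5 and Psmb6 of the standard 20S particle. Psmb8 read 10274 for blood and 10113 for colon on array 1, and 21741 for blood and 3578 for colon on array 2. Its log2 ratios were -0.60 and -0.40, mean -0.50 ± 0.14, 1.42-fold lower in the colon pool. Psmb9 read 4670 for blood and 4232 for colon on array 1, and 10689 for blood and 1612 for colon on array 2. Its ratios were -0.68 and -0.63, mean -0.66 ± 0.04, 1.58-fold lower. For both genes the blood value was the higher on each array in either dye, and neither reached 2-fold on both arrays. With median centring the means were -1.27 for Psmb8 (-0.28 and -2.26 on the arrays) and -1.39 for Psmb9 (-0.39 and -2.38), still not called.

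The third interferon-induced catalytic subunit, Psmb10, which replaces Psmb7, had a log2 ratio of -0.67 ± 0.13. Set against the subunit that each replaces, Psmb9 lay 1.05 ± 0.04 below Psmb6 (0.40 ± 0.005), and Psmb10 lay 0.50 ± 0.08 below Psmb7 (-0.17 ± 0.05). Psmb8 differed from Psmb5 (-0.41 ± 0.05) by -0.10 ± 0.20, within the spread between arrays. Under the 4 other scalings the differences were -1.19 to -0.99 for Psmb9 against Psmb6, -0.61 to -0.35 for Psmb10 against Psmb7 and -0.17 to -0.06 for Psmb8 against Psmb5. On the probes used, the 3 pairs of exchangeable subunits therefore did not shift by a like amount.

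Erap1 encodes the ER aminopeptidase that trims precursors from their amino end. It was the dimmest of the 10, with 121 for blood and 155 for colon on array 1, and 207 for blood and 94.8 for colon on array 2 (chr13:74828969-74829028, mm9). Its log2 ratios were -0.07 and 0.03, mean -0.02 ± 0.07. The mean was -0.04 with an offset of 16, -0.10 with no background correction, -0.58 by the scanner software and -0.24 with median centring. Among the 10 genes the software's ratio differed most from the reported ratio for Erap1.

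H2-K1, given here by its first probe, was first and Tap1 last in the order of the 10 ratios as reported and under the 4 other scalings. The second H2-K1 probe, at 0.24, lay below B2m (0.35) and H2-M3 (0.29). The ratio of H2-K1 exceeded that of Tap1 by 1.90 ± 0.01 on the log2 scale, 3.72-fold, and by 1.64 to 2.22 under the other scalings. The ratio of B2m exceeded that of Tap1 by 1.46 ± 0.14, and that of Psmb9 by 0.46 ± 0.11. Erap1 moved most in this order: H2-K1 exceeded it by 0.81 ± 0.15, but by 0.17 with median centring and by 1.34 with the scanner software's ratios, which took Erap1 to second and to eighth place. Of the alternatives, 7 can change the ratio of every gene (the 4 scalings, no normalization and each array alone), and averaging probes can change only H2-K1. The 7 are not independent checks. Each array alone cannot turn a sign that both arrays share. No normalization and median centring gave the same differences from the median of all genes. Tap1, Psmb9, Psmb8 and Tapbp were below 0 in all 7, H2-K1, B2m, H2-M3 and Tap2 kept their sign in 5, and H2-D1 and Erap1 in 6.

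**Figure D3:**
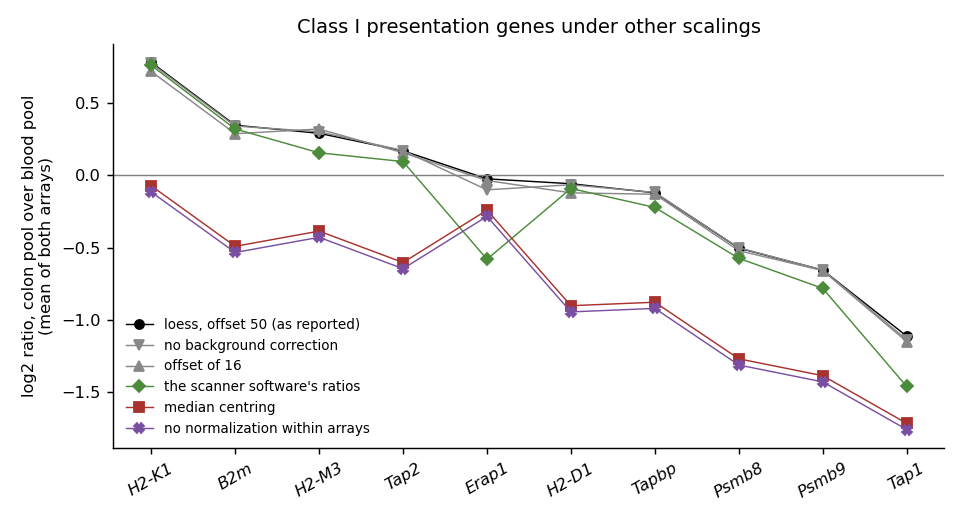
Mean log2 ratio of colon over blood (vertical axis) of the 10 genes under the reported processing and 5 other ways of scaling, with lines joining the genes of 1 setting. Median centring (median of all genes -0.28) and no normalization (-0.32) place H2-K1, B2m, H2-M3 and Tap2 below 0, whereas Tap1 is the lowest gene under all 6 settings.

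Across the class I pathway outside these 10 genes, 130 further genes were measured in 10 lists drawn up by role. Of these, 8 were called higher and 10 lower (13.8%), with a median log2 ratio of 0.01. The shares of all measured genes, to be set beside each count below, were 14.2% higher and 4.46% lower (18.6% in all). With median centring, 3 of the 8 higher calls (H2-M2, Procr and Lilra5) and 7 of the 10 lower calls were kept. Among 13 other heavy chain genes, 2 were called higher and 1 lower, with a median of 0.04. H2-M2, a non-classical heavy chain gene, read 70.2 and 101 in blood but 4995 and 2093 in colon, a log2 ratio of 5.60 ± 0.33. H2-Q8 followed with 2.30 ± 0.10, although near-identical Q-region genes leave its source uncertain. H2-T24 was lower, at -1.97 ± 0.12, and its second probe gave -1.24. The other 10 heavy chain genes were not called. With median centring H2-Q8 was not called, and the median of the 13 was -0.77.

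Of 8 class I-like molecules, 2 were called higher. Procr, the endothelial protein C receptor, had a log2 ratio of 4.39 ± 0.05, and Fcgrt, the neonatal Fc receptor chain that recycles IgG, had 2.33 ± 0.02. The list's median was 0.72, and all 8 were above 0 on both arrays. With median centring the median was 0.38, and Fcgrt was not called. Of 9 genes of loading and folding in the ER, only Hspa5, the chaperone BiP, was called (2.62 ± 0.48), and with median centring it was not. The list's median was 0.42, and -0.35 with median centring. Calreticulin (Calr, 0.95 ± 0.30), calnexin (Canx, 0.90 ± 0.09) and Pdia3 (0.90 ± 0.11), which take part in folding and loading, were not called. These 3 were picked after their values were seen. On both arrays 6 of the 9 genes were above 0 and 2 below 0, Tapbpl (-0.60 ± 0.06) and Uggt1 (-0.21 ± 0.29).

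On the peptide supply side, calls were few beside the 18.6% of all measured genes called. None of 8 immunoproteasome and activator genes was called (median -0.27), and the brightest of them was Psmb10. Of 14 constitutive 20S subunits 1 was called, Psma7, a structural alpha subunit, at -1.21 ± 0.27, with a median of -0.27 over the list. None of 22 genes of the 19S regulator, which unfolds substrates, was called (median 0.09, brightest Psmc3 at 0.29 ± 0.05). None of 10 peptidases was called either (median -0.26, brightest Rnpep, an aminopeptidase, at -0.96 ± 0.16). With median centring these 4 medians were -0.91, -0.98, -0.58 and -0.88, so that of the 19S regulator turned its sign.

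Of 23 regulators of class I transcription 1 was called higher and 3 lower (median -0.14). Socs1, a feedback inhibitor of interferon signalling, was higher at 2.24 ± 0.02. Irf2 (-1.78 ± 0.16), a factor that binds interferon elements, Ifngr1 (-1.23 ± 0.03), a chain of the interferon-gamma receptor, and Nlrc5 were lower. Nlrc5 is the transactivator of class I genes. It read 2076 for blood and 1388 for colon on array 1, and 4905 for blood and 538 for colon on array 2, for a log2 ratio of -1.14 ± 0.07, while its second probe gave -0.37. Like Tap1, Nlrc5 was not called under median centring, with -0.83 and -2.82 on the 2 arrays. Ifngr1 (-0.92 and -3.05) and Socs1 (2.49 and 0.92) were not called there either, and the list's median was -0.38.

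Of 15 cross-presentation genes 2 were called lower, Rab27a (-1.93 ± 0.43), a GTPase of vesicle transport, and Ikbkb (-1.55 ± 0.06), a kinase of the NF-kappa B pathway. The list's median was -0.19, and -0.88 with median centring. Among 8 genes listed as receptors that bind class I, Lilra5 (1.63 ± 0.02) and Lilrb4a (1.43 ± 0.05) were called higher. Lilra6 (-1.88 ± 0.11), Klra2 (-1.53 ± 0.01) and Pirb (-1.20 ± 0.14) were called lower. Whether each listed receptor binds class I was not tested. Several of these receptors have close paralogs, and whether their probes tell them apart was not tested. With median centring Pirb and Lilrb4a were not called.

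Class II genes stood apart from the class I set. Of 11 measured, 10 were called higher in the colon pool, against 14.2% of all measured genes, and their median log2 ratio was 2.67. H2-Aa, a class II alpha chain, had 4.51 ± 0.15, Cd74, the invariant chain, 3.88 ± 0.14 and H2-Ab1, a class II beta chain, 3.58 ± 0.30. The ratio of H2-Aa exceeded that of the first H2-K1 probe by 3.73 ± 0.07 on the log2 scale, and that of Cd74 exceeded that of B2m by 3.53 ± 0.08. Under the 4 other scalings these differences ran from 3.74 to 3.78 and from 3.48 to 3.56. A shift shared by both genes of a pair cancels in such a difference, so these ranges are a weak check. With median centring 8 of the 10 calls were kept and the median was 2.07, with H2-DMa and H2-DMb1 not called. Ciita, the class II transactivator, was the class II gene not called, with arrays of opposite sign (-0.22 and 0.46). It was dim, at 76.5 for blood and 85.7 for colon on array 1, and 74.1 for blood and 78.9 for colon on array 2. A lack of change therefore cannot be read from it.

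**Figure D4:**
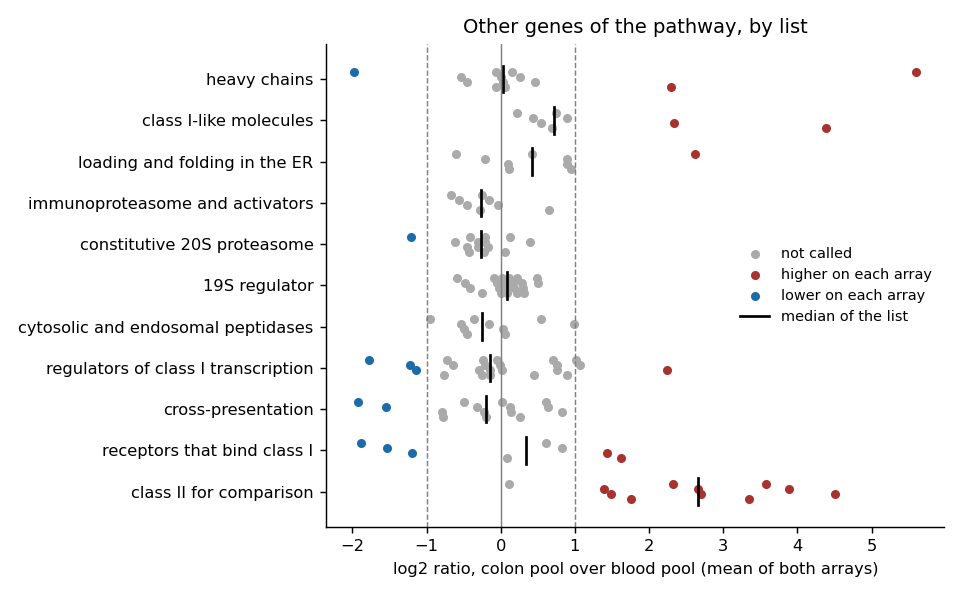
Mean log2 ratio of colon over blood (horizontal axis) of each measured gene in 10 class I lists and the class II list (rows), coloured by whether it passed 2-fold on each array, with the list median as a bar. Most class I points lie between the dashed 2-fold limits, whereas 10 of 11 class II genes lie above the upper limit; with median centring 3 of the 130 class I genes, in place of 8, are called higher.

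Psmb9, Tap1, Psmb8 and Tap2 lie inside the class II region of chromosome 17. In the stretch from 300 kb before to 200 kb after the Tap1 probe, 37 genes were measured, of which 11 were called higher and 4 lower. The shares of all measured genes were 14.2% and 4.46%. All of the 11 but LOC641240 and Btnl2 are class II genes already counted above. The LOC641240 probe (3.72) overlaps that of H2-Ab1 (3.58) in position, so the count of 11 may hold 1 transcript 2 times. Psmb9 lay 11.7 kb before the Tap1 probe, Psmb8 6.92 kb after it and Tap2 22.3 kb after it. Their neighbours on either side were H2-DMb1, 33.7 kb before, with a log2 ratio of 2.32 ± 0.12, and H2-Ob, 49.6 kb after, with 2.70 ± 0.04. H2-DMb1 and H2-Ob encode chains of the peptide editors of the class II pathway. The 4 class I genes between them thus ran from -1.11 to 0.17, and none was called higher.

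**Figure D5:**
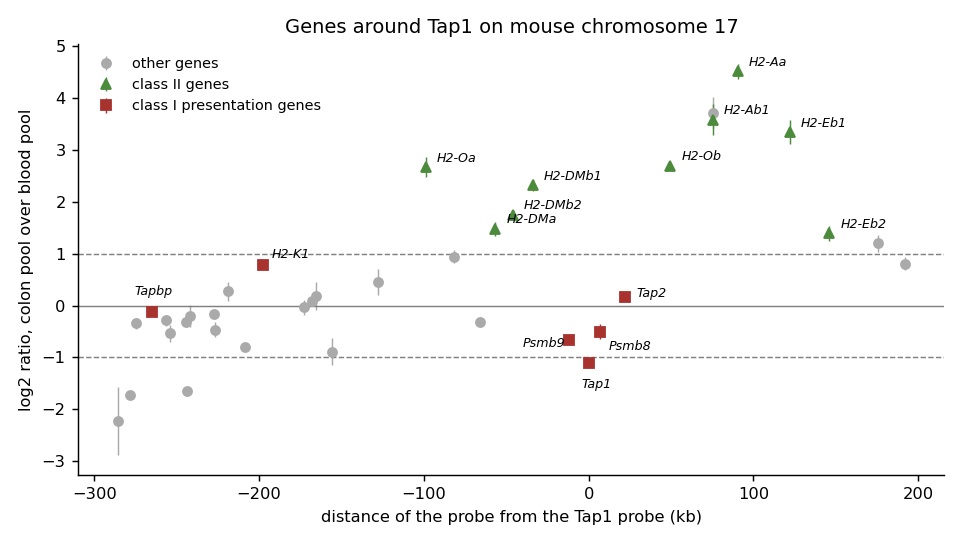
Log2 ratio of colon over blood (vertical axis, mean with the SD over 2 arrays) against the distance of each gene's probe from the Tap1 probe in kb (horizontal axis), with class II genes as triangles, class I presentation genes as squares and other genes as circles. Psmb9, Tap1, Psmb8 and Tap2 sit between -1.11 and 0.17 amid class II genes at 1.39 or more; Tap2 and H2-K1 are below 0 with median centring, and H2-Eb2 was not well above background in blood, so that its ratio is a lower bound.

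The sort genes and markers of other cells were checked on the same arrays. Itgax (CD11c) was higher in the colon pool (3.35 ± 0.08) and Ly6c1 lower (-3.28 ± 0.09), while Cx3cr1 (0.10 ± 0.25) and Itgam (CD11b, -0.46 ± 0.33) were not called. Of 8 macrophage markers 5 were called higher, and all 6 monocyte markers were called lower. Among all measured genes 14.2% were called higher and 4.46% lower. Markers of other cells were also higher in the colon pool: 6 of 6 for fibroblasts, 4 of 6 for epithelium, 5 of 6 for B and plasma cells, 3 of 5 for T and NK cells and 2 of 5 for endothelium. On the log2 scale their summed signal was 16.78 in colon against 10.14 in blood for fibroblasts, 12.47 against 9.32 for epithelium, 15.07 against 11.14 for B and plasma cells, 12.88 against 10.54 for T and NK cells, and 12.17 against 10.64 for endothelium. None of these markers was below background in the colon pool. Of 5 neutrophil markers 3 were called lower, with 12.94 in colon against 16.33 in blood, and of 4 dendritic cell markers 1 was called higher and 1 lower. Most nucleated cells express class I genes, and the part of these other cells in the class I and class II ratios was not tested.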

How the data were processed

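Per the file headers, the deposited scanner files hold unnormalized spot and background intensity in each channel and a dye-normalized log10 ratio (Cy5 over Cy3). The scanner software, Agilent Feature Extraction, has version 10.7.3.1 there; per the submitters' processing notes it is 10.5.1.1. The same log10 ratios fill the deposited value table, turned to colon over blood on both arrays (largest difference 4.81e-08, median of each column 0 after conversion to log2). Each pool was labelled from 25 ng of total RNA by oligo-dT amplification, per the labels' protocols. From the deposited intensities, log2 ratios were computed here with normexp (offset 50) and loess within arrays in limma 3.58.1 (R 4.3.3), control and outlier spots at weight 0. Spots of a probe were averaged, and the probe of highest mean intensity stood for its gene. The method was checked on simulated data in which few, bright probes changed, as many up as down. The dye trend was the same on both simulated arrays. That check could not test whether the loess assumption holds for these pools. RefSeq names (GRCm38.p6) served for names and promoters, mm9 probe positions come from the files, and 9 of the 10 genes had a promoter entry. Tests were impossible with 1 pool a group. No annotation of mm9 was used. All probes of the 10 genes are named, and from each other list up to 3 called genes per direction of largest ratio, or the brightest gene. Genes and lists were chosen with earlier results of these data known. Alternatives covered background correction, offset, centring, the software's ratios, Aquantile, probe averaging, dim-probe filters, fold limits and each array alone.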

Additional observations from a re-analysis of the deposited data

How the results depend on the processing

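The count of 1 of the 10 class I genes called lower held with no background correction, an offset of 16, the scanner software's ratios, the deposited table, Aquantile, the mean over probes, both other filters on dim probes and each array alone. It fell to 0 with median centring, with no normalization within arrays (chosen after seeing the data) and with a 4-fold limit. A 1.5-fold limit gave 1 higher (H2-K1) and 2 lower (Tap1 and Psmb9). The median of the 10 genes was -0.082 with no background correction, -0.078 with an offset of 16, -0.74 with median centring, -0.16 with the software's ratios and the deposited table, and -0.78 with no normalization; on each array alone it ran from -0.021 to 0.030. Of all genes, 1138 were called higher with median centring. The software's ratios and the deposited table gave 2083 lower and 60.4% of calls higher. A 1.5-fold limit gave 3493 higher and 1725 lower, a 4-fold limit 954 and 130 (88.0% of calls higher), and no normalization 825 and 373. Of the 130 other class I genes, 3 were called higher with median centring, 22 higher and 16 lower at 1.5-fold, 0 lower at 4-fold, and 2 higher and 5 lower with no normalization. The lower counts under a 4-fold limit follow from the limit; the cause of the others was not tested. No paired analysis was possible because both arrays hold the same pools and the comparison comes from no test. Averaging both H2-K1 probes gave 0.51. Of the settings above, Aquantile and the filters on dim probes could not change a ratio of the 10 genes, and the deposited table repeats the software's ratios. The Tap1 call on each array alone was fixed by the rule, which needs both arrays to pass. Erap1, the dimmest of the 10, was nearest to background.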
